A study of Mus musculus with 4 samples.

Results

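The 426 cells described here are thymic regulatory T (Treg) cells that carried the messenger RNA signature of strong signalling through the T cell receptor (TCR). They were chosen from single-cell 3' RNA profiles as cells with 4 or more unique molecular identifiers (UMIs, each standing for 1 captured transcript) summed over Nr4a2, Nr4a3, Egr2, Irf4, Cd83, Nfkbid and Gadd45b, 7 genes that T cells induce when the TCR is engaged. They made up 5.89% of the 7231 cells in the authors' normalized table, which its name ties to G1 cells, and the count table held 8273 cells in all. They were set against 6217 cells of the same table with 0 or 1 such UMIs, and 588 cells with 2 or 3 stood between. Because measured values chose the members, the 7 genes of the rule are given below as a description and are left out of every count.

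The series holds 4 samples, 1 each of mice labelled IL2 o/o, IL15 o/o, IL2 wt/wt and IL15 wt/wt. All were 3 weeks old, of the B6 strain, and carried both Rag2-Gfp and Foxp3-Thy1a, so that Thy1.1 reports Foxp3 and GFP from Rag2 regulatory sequence marks recently made T cells. Thymic cells were sorted on CD4, Thy1.1 and GFP and against CD8, then captured in droplets with the Chromium v2 3' kit. Cell barcodes ended in 1 of 4 suffixes, called libraries 1 to 4 here. No label ties a suffix to a genotype, so the libraries are unassigned, no genotype was compared, and no p-value is given.

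As background, a developing thymocyte whose TCR binds self peptide strongly enough can be turned toward the Treg fate, and lasting or strong TCR signals switch on immediate early factors such as the NR4A and EGR families within the cell. Signals through the TCR and CD28 also release NF-kB, which drives Foxp3 and receptors of the TNF family, and they raise MYC, which prepares the cell for growth. Mature thymocytes leave the thymus by following sphingosine 1-phosphate with the receptor S1PR1, whose gene is driven by KLF2 and is shut off by TCR signalling.

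Depth and makeup of the libraries touch every value below. Members had a median of 5121 UMIs and 1820.5 genes per cell, and comparison cells 3011 UMIs and 1271 genes. The members held 2585209 UMIs in all and the comparison cells 22169910. The mitochondrial share had medians of 2.07% in members and 2.25% in comparison cells. Since the rule counts UMIs, a deeper cell meets it more easily, so each count is also given within quartiles of depth where that moves it. Libraries 1 to 4 held 106, 153, 56 and 111 members, or 7.59%, 7.26%, 3.14% and 5.71% of their cells (95% exact Clopper-Pearson intervals 6.25 to 9.10%, 6.19 to 8.45%, 2.38 to 4.06% and 4.72 to 6.84%). After 6508 cells were thinned to 1886 UMIs the shares of those cells were 2.09%, 1.97%, 1.42% and 2.17%, with intervals that overlap. The 723 shallower cells, 56, 130, 302 and 235 in libraries 1 to 4, were left out of the thinned shares. Library 3 was the shallowest, with member medians of 3571 UMIs there and 4776 to 5694 in the others. The targeted cytokine genes were sparse: Il2 had 20, 18, 13 and 13 UMIs in the members of libraries 1 to 4 and 191, 215, 196 and 226 in their comparison cells, and Il15 had 0 UMIs in the members, which allows up to 1.16 CPM, and 9 in the comparison cells. The sources used here do not say which part of each gene the mutations remove, so these counts check no label. Of the barcodes, 27 occurred in more than 1 library, and 1 member carried such a barcode.

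The rule was met mostly through Cd83, an activation-induced surface protein that steadies MHC class II and CD86. Cd83 gave 1124 UMIs, 37.7% of all rule UMIs, and was seen in 318 of the 426 members. Gadd45b, a stress and NF-kB inducible regulator of p38 kinase signalling, gave 579 UMIs, and Nfkbid, the atypical nuclear IkB that helps induce Foxp3, gave 557. The transcription factors were rarer, with 248 UMIs of Nr4a3, 185 of Egr2, 165 of Nr4a2 and 120 of Irf4. Cd83 stood at 463, 422, 339 and 459 UMIs per total of 1000000 (CPM) in the members of libraries 1 to 4, against 14.8, 12.7, 7.97 and 15.6 CPM in the comparison cells. Nfkbid stood at 192, 208, 392 and 186 CPM in the members and at 16.3, 16.2, 24.6 and 18.8 CPM in the comparison cells, with its highest level in library 3. The median member had 6 rule UMIs from 3 of the genes, the highest had 39, and 51 members met the rule through a single gene. At the threshold, the 125 members with exactly 4 rule UMIs had a median depth of 4814 UMIs and the 217 cells with exactly 3 had 4357. Nr4a1, outside the rule, stood at 239 CPM in the 125 members just inside and 245 CPM in the 217 cells just outside. S1pr1 stood at 40.7 CPM just inside and 84.7 CPM just outside.

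Across the transcriptome, 907 of 8681 genes tested (10.4%) were called higher in the members and 1279 (14.7%) lower. A gene was tested with 100 or more UMIs over both sets, and called when the ratio of CPM, stratified by library, was 1.5-fold or more and ran the same way in all 4 libraries. The ratio carries an approximate 95% interval that covers counting error only, since cells are not replicates. Where libraries of the sets are said below not to overlap, this describes the genes named. The share of all genes tested without overlap was not counted, so it is not shown to be particular to them. The median log2 ratio of all genes tested was -0.06, the value against which the lists below are read. Counts called in each list are to be read beside the 10.4% and 14.7% of all genes tested. A count near those shares is not particular to its list. When strata of library and depth quartile were used, 704 of the 907 and 912 of the 1279 stayed called. With these strata 747 of the 8681 genes were called higher in all and 939 lower, the counts beside which list counts within depth strata are read. In the authors' normalized table all 907 and all 1279 had the same sign of difference over the 4 libraries averaged, but in each library separately only 880 of the 907 and 1043 of the 1279 did.

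**Figure D1:**
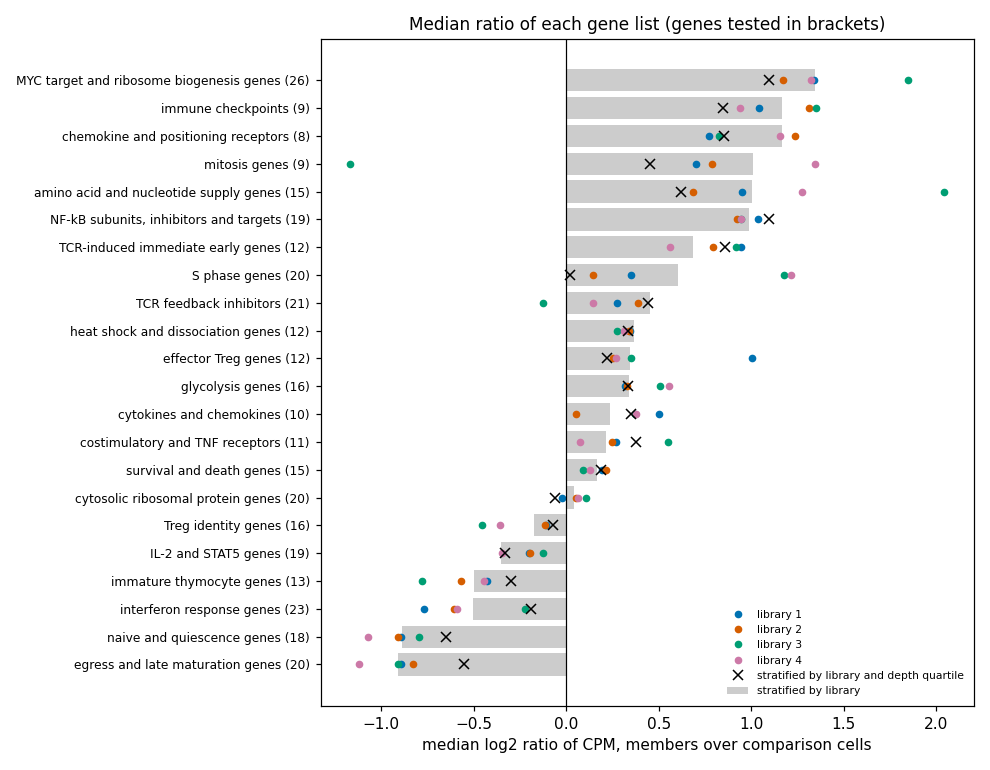
Median log2 ratio of CPM (members over comparison cells, horizontal axis) for 22 gene lists, with the number of genes tested in brackets. Bars show the ratio stratified by library, points each library alone, and crosses the ratio stratified by library and depth quartile. The MYC list has the highest median, 1.34, and the egress list the lowest, -0.91, while the cross of the S phase list sits near 0 at 0.02.

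Of 12 immediate early genes tested outside the rule, 6 were called higher in the members and 0 lower, with a median log2 ratio of 0.68. Nr4a1, which encodes the orphan receptor NUR77 and lies at chr15:101254269-101274795 (GRCm38), stood at 405, 345, 596 and 483 CPM in the members of libraries 1 to 4, against 49.4, 63.5, 99.6 and 74.5 CPM in the comparison cells, a 6.37-fold ratio (log2 2.67, interval 2.56 to 2.79). Every library's members lay above every library's comparison cells. Bhlhe40, a repressor induced by TCR signals, had 179, 180.3, 200.03 and 171 CPM in the members and 15.1, 19.2, 26.8 and 15.9 CPM in the comparison cells, or 9.96-fold. Egr1, the zinc finger factor induced through the MAP kinase cascade, had 61.1, 80.04, 81.6 and 56.9 CPM in the members and 23.4, 21.5, 34.1 and 28.3 CPM in the comparison cells, also without overlap. Cd69, the early activation antigen that holds S1PR1 inside the cell, was closer between the sets, at 220.4, 242, 531 and 257 CPM in the members and 159.9, 135, 204 and 169.9 CPM in the comparison cells. Library 3 stood highest in both sets for Cd69, and the sets did not overlap. Ier2 was also called higher (log2 0.96). The AP-1 genes of this list that were tested were not called: Junb had a log2 ratio of 0.60, Jund -0.02, Jun -0.52, Fos -0.53 and Fosb 0.05. Fosl2, an AP-1 gene too sparse to be tested, had 46 UMIs in the members and 45 in the comparison cells (17.8 and 2.03 CPM). Ier5 (0.50) was not called either.

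**Figure D2:**
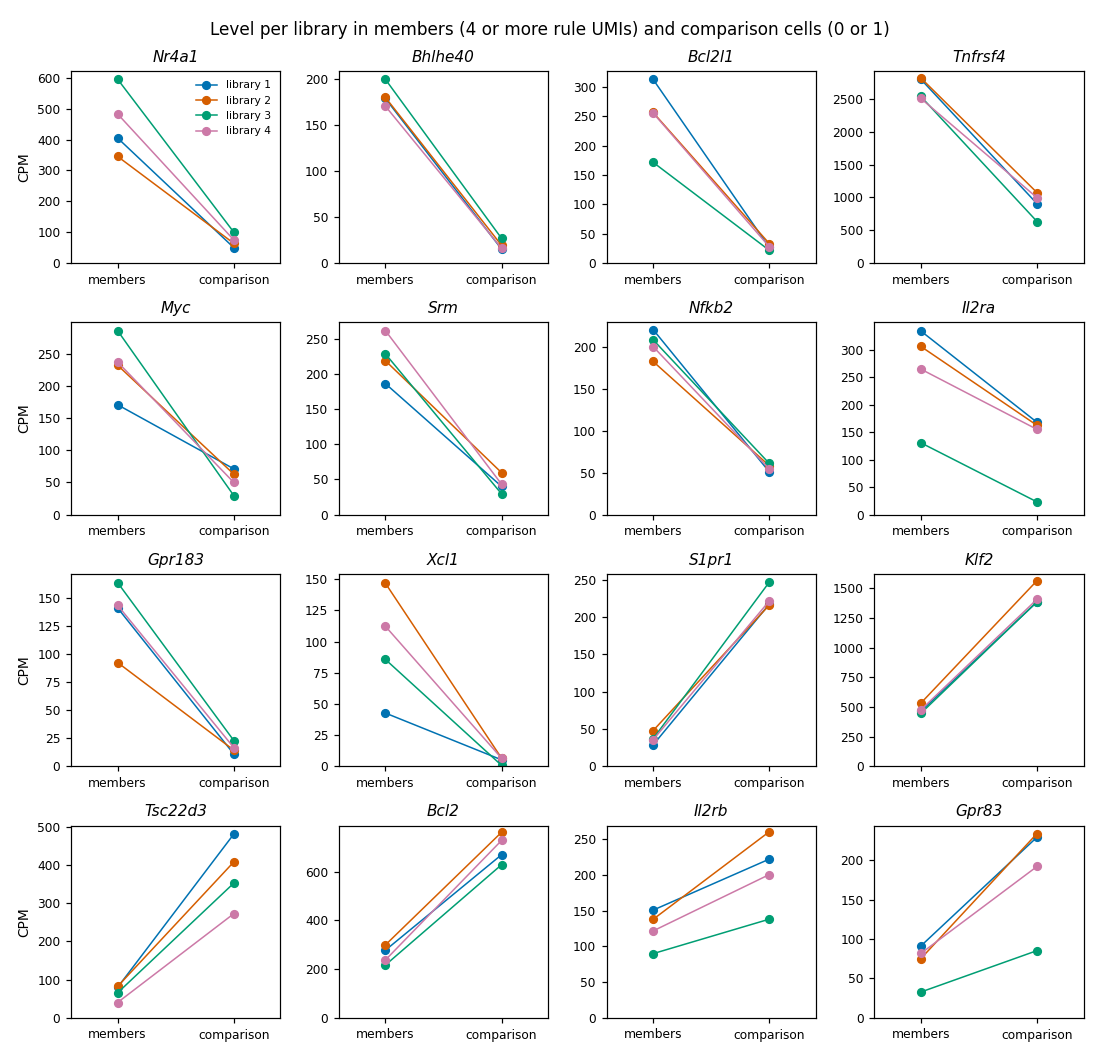
Level (CPM, vertical axis, from 0) of 16 genes in members (left) and comparison cells (right) of libraries 1 to 4, 1 line per library. Nr4a1, Bhlhe40, Bcl2l1, Tnfrsf4, Myc, Srm, Nfkb2, Il2ra, Gpr183 and Xcl1 are higher in the members of every library, and S1pr1, Klf2, Tsc22d3, Bcl2, Il2rb and Gpr83 are lower.

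Inhibitors that TCR signals induce to restrain themselves were mixed, with 5 of 21 tested called higher and 3 lower (median log2 0.45). Within depth strata 6 were higher and 1 lower. The 3 lower are near the share of all genes tested that were called lower, 14.7%. Dusp5, a nuclear phosphatase of ERK, had 290.02, 283, 376 and 222 CPM in the members and 80.4, 116, 113 and 90.1 CPM in the comparison cells. Spry1, a brake on the RAS to ERK route, had 18.5, 27.4, 32.7 and 24.6 CPM in the members and 11.8, 7.97, 10.6 and 7.53 CPM in the comparison cells. Sla, an adaptor that lowers TCR levels, and Sh2d2a, an adaptor of LCK, had log2 ratios of 1.21 and 1.00, and Ptpn6, which encodes the phosphatase SHP-1, 0.98. Cblb, a ubiquitin ligase that dampens CD28 signals, was called lower (-0.81), as were Dgka (-0.74) and Dusp6 (-0.78), the last pair only without depth strata. Cd5, which thymocytes carry in proportion to TCR signal, stood at 334, 356, 535 and 366 CPM in the members and 277, 283, 322 and 331 CPM in the comparison cells and was not called, at 1.25-fold.

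Most of the NF-kB list was called higher in the members, 12 of 19 genes with 0 lower, and it had a median log2 ratio of 0.99 (14 called and 1.10 within depth strata). Among the subunits, Nfkb2, which encodes p100 of the alternative pathway, had 220.4, 182, 208 and 200.1 CPM in the members and 50.9, 58.2, 60.8 and 54.3 CPM in the comparison cells (3.60-fold). Rel, the subunit most tied to Treg development, had 156, 142, 220.4 and 180.1 CPM in the members and 62.7, 62.1, 67.04 and 82.2 CPM in the comparison cells. Nfkb1 and Relb had log2 ratios of 1.18 and 0.91, and Rela 0.55, which was not called. For Nfkb2 and Rel the sets did not overlap. Among the inhibitors, Nfkbie (1.28), Nfkbib (1.15) and Nfkbia (1.10), which encode the IkB proteins that hold NF-kB in the cytoplasm, were all called higher, as was Tnfaip3, the gene of the deubiquitinase A20 (1.21). Among the targets, Icam1, the adhesion ligand of LFA-1, had 76.8, 87.1, 57.2 and 92.3 CPM in the members and 13.4, 20.8, 19.7 and 15.1 CPM in the comparison cells (4.78-fold). Traf1, an adaptor of TNF receptors, had 303, 249, 241 and 249 CPM in the members and 77.7, 65.6, 117 and 90.3 CPM in the comparison cells. Bcl3 (0.03), Cflar (0.10) and Tnip1 (-0.40) were not called.

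Of 11 costimulatory genes and TNF family receptors tested, 5 were called higher in the members and 2 lower (median log2 0.21). Tnfrsf4, which encodes OX40, stood at 2806, 2826, 2543 and 2513 CPM in the members of libraries 1 to 4, against 904, 1074, 633 and 997 CPM in the comparison cells. Tnfrsf9, which encodes CD137, stood at 635, 650.4, 779.7 and 636 CPM in the members and 199.8, 246, 219 and 203 CPM in the comparison cells. Tnfrsf18, which encodes GITR, stood at 1601, 1654, 1131 and 1377 CPM in the members and 708, 867, 561 and 810.02 CPM in the comparison cells. For each of these receptors, the lowest library of members lay above the highest library of comparison cells, and the ratios were 2.81-fold, 2.98-fold and 1.95-fold. These 3 receptors mark Treg progenitors and mature Treg cells, and the ligands of OX40 and GITR aid the step to Foxp3 expression. Tnfrsf1b (log2 0.71) and Cd40lg (0.90), which encodes the ligand of CD40, were called higher too, while the TNF family receptors Cd27 (-0.19) and Tnfrsf25 (0.02) were not called. Cd28, the receptor that gives the second signal, went the other way, with 121, 144, 257 and 146 CPM in the members and 351, 313, 501 and 393 CPM in the comparison cells. Slamf6, a SLAM family receptor, was also called lower (log2 -1.09), and Icos (-0.16) and Cd2 (0.21) were not called.

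Inhibitory receptors and ligands were higher as well, 8 of 9 tested, with 0 lower and a median log2 ratio of 1.17 (7 and 0.85 within depth strata, where Pdcd1 lost its call). Pdcd1lg2, the gene of the PD-1 ligand PD-L2, had 52.6, 58.8, 48.99 and 44.6 CPM in the members and 6.51, 10.2, 3.76 and 5.73 CPM in the comparison cells (7.06-fold). Cd274, which encodes PD-L1, had 27.01, 21.3, 69.4 and 29.2 CPM in the members and 6.51, 8.95, 22.1 and 10.6 CPM in the comparison cells, with library 3 highest in both. Btla, an inhibitory receptor for HVEM, had 76.8, 71.9, 44.9 and 66.2 CPM in the members and 17.1, 20.7, 17.9 and 17.02 CPM in the comparison cells. Cd160 (1.18), Lag3 (1.17), Vsir (1.12), Pdcd1 (0.86) and Cd200 (0.61) were called on smaller log2 ratios. Ctla4, the inhibitory receptor that Treg cells use most, did not follow them, at 118, 156, 36.7 and 98.5 CPM in the members and 194, 185, 86.95 and 145 CPM in the comparison cells (log2 -0.49, not called).

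Genes of the BCL2 family differed in opposite directions. Bcl2, whose product guards mature T cells from death, had 277, 299, 216 and 237 CPM in the members of libraries 1 to 4, against 669, 762, 628 and 728 CPM in the comparison cells (log2 -1.41, interval -1.52 to -1.30). Bcl2l1, which encodes BCL-XL and lies at chr2:152780668-152831728, had 313, 256, 171 and 255 CPM in the members, against 26.4, 32.99, 21.5 and 27.6 CPM in the comparison cells, a 9.14-fold ratio. In all 4 libraries the sets were apart for both genes, in opposite directions. Bcl2a1d and Bcl2a1b, which encode A1 proteins, were 7.51-fold and 5.89-fold higher, but these copies are nearly identical and how reads were split between them is uncertain. The pro-death genes Bid (1.35), Pmaip1 (1.23) and Fas (0.68) were called higher and Bbc3, which encodes PUMA, lower (-1.28). Bcl2l11, which encodes BIM, the death factor of negative selection, stood at 19.9, 11.1, 73.5 and 23.1 CPM in the members and 26.9, 21.2, 35.6 and 23.1 CPM in the comparison cells and was not called. Its direction differed between libraries, with library 3 the highest among members. In all, 6 of 15 survival and death genes were called higher and 3 lower (median log2 0.17), of which Xiap lost its lower call within depth strata.

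MYC targets and genes of ribosome assembly were higher without exception, 26 of 26 tested, with a median log2 ratio of 1.34 (23 called and 1.10 within depth strata, 24 to 26 called when each library was left out in turn). Myc itself had 171, 232, 286 and 237 CPM in the members of libraries 1 to 4, against 70.99, 62.8, 29.4 and 49.8 CPM in the comparison cells (3.81-fold). Srm, the spermidine synthase, had 186, 219, 229 and 262 CPM in the members and 40.1, 59.6, 29.4 and 43.2 CPM in the comparison cells, and Odc1, the ornithine decarboxylase that feeds it, 92.4, 115, 122 and 105 CPM in the members and 24.00, 29.9, 22.1 and 24.9 CPM in the comparison cells. No library of members overlapped with a library of comparison cells in any of the 3. Polr1b, the second largest subunit of RNA polymerase I, had the highest ratio of the list at 7.82-fold, on 70 UMIs in the members and 73 in the comparison cells. Gnl3, a nucleolar GTPase, stood at 85.3, 131, 225 and 129 CPM in the members and 28.1, 34.1, 29.6 and 30.8 CPM in the comparison cells. The nucleolar genes Nop56 (1.52), Nop58 (1.66), Nolc1 (1.84), Ncl (1.06) and Npm1 (0.62) had smaller log2 ratios. The 20 cytosolic ribosomal protein genes did not move with them: 0 were called either way and their log2 ratios ran from -0.17 to 0.30, with a median of 0.04.

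Because the MYC list was higher together, promoters were searched for the E-box letters CACGTG, which MYC with MAX binds and which read the same on both strands. They were found in the 250 bases before the start, as RefSeq gives it (GRCm38.p6), of 3 of the 20 MYC-list genes that had a promoter in the table (15.0%). The share was 14.3% of the genes called higher, 10.7% of those called lower, 10.4% of all genes tested and 6.86% of all promoters. The list thus stood close to the called genes as a whole. A pair of its promoters with a match within 100 bases of the start is shown, for the chaperonin gene Hspd1 and the translation factor gene Eif5a, with the 100 bases before the start written 5' to 3' in the direction of the transcript and the match in capitals.
Hspd1, chr1:55088244-55088343, minus strand: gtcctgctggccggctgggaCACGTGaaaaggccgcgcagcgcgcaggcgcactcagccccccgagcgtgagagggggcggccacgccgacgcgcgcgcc
Eif5a, chr11:69921387-69921486, minus strand: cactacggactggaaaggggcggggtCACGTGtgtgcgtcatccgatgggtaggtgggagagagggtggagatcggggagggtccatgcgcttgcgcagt
These matches describe letters, not binding, and no measurement of binding was made in the data used here.

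Supply genes for growth were higher too, 13 of 15 tested with 0 lower (median log2 1.00), of which 8 held within depth strata, where the median was 0.62. Slc7a1, a carrier of arginine and lysine, had 36.96, 45.6, 69.4 and 53.9 CPM in the members and 9.97, 8.39, 9.07 and 7.70 CPM in the comparison cells (5.48-fold). Tfrc, the transferrin receptor that brings in iron, was 4.65-fold higher on 61 UMIs in members, and Shmt1, which moves 1-carbon units from serine to folate, 5.79-fold higher. Ctps, the CTP synthase, and Slc7a5, the large neutral amino acid carrier, had log2 ratios of 1.60 and 1.48. Of 16 glycolysis genes 5 were called higher and 0 lower (3 within depth strata), with a median log2 ratio of 0.34. Hk2, an inducible hexokinase, led them at 7.20-fold on 51 UMIs in members and 59 in comparison cells. Ldha, the lactate dehydrogenase subunit, had 1454, 1461, 1061 and 1376 CPM in the members and 776, 944, 546 and 765 CPM in the comparison cells. The constitutive enzymes Gapdh (0.33), Pkm (0.24) and Eno1 (0.01) were not called.

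The calls of cell cycle genes varied with how depth was handled. Of 20 S phase genes 12 were called higher and 0 lower (median log2 0.60), but within depth strata 0 were called and the median was 0.02. After every cell used was thinned to 1 number of UMIs, 8 were called and the median was 0.72. This thinning kept the members chosen on their full counts, so it left the effect of depth on membership in place. With members chosen by their share of rule UMIs, 0 were called, and without library 4 only 2. Ung, a uracil glycosylase, had 73.9, 71.9, 93.9 and 103 CPM in the members and 39.1, 50.3, 17.7 and 37.3 CPM in the comparison cells. Rrm2, the small subunit of ribonucleotide reductase, had 32.7, 50.7, 20.4 and 105 CPM in the members and 28.1, 40.1, 5.53 and 24.2 CPM in the comparison cells, with library 4 far above the others among members. Of 9 mitosis genes 3 were called higher (Cdk1, Birc5 and Cdc20, log2 1.12, 1.07 and 0.73), and 0 within depth strata. The members of library 3 had 1 UMI of each of these 3 genes.

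Most genes of egress and late maturation were called lower in the members, 13 of 20 tested with 0 higher, with a median log2 ratio of -0.91 (8 and -0.55 within depth strata). S1pr1, the egress receptor at chr3:115710433-115715072, stood at 28.4, 47.6, 36.7 and 35.4 CPM in the members of libraries 1 to 4, against 217, 216, 247 and 221 CPM in the comparison cells (log2 -2.53, interval -2.82 to -2.24). Klf2, which encodes the factor that drives it, stood at 462, 531, 445 and 474 CPM in the members and 1384, 1564, 1387 and 1407 CPM in the comparison cells. For both, the highest library of members lay far below the lowest library of comparison cells. S1pr4, a related receptor, had 52.6, 47.6, 44.9 and 49.2 CPM in the members and 166, 188, 132 and 164 CPM in the comparison cells, and Klf3, a repressor of the same family as Klf2, 19.9, 17.2, 16.3 and 32.3 CPM in the members and 106, 101, 127 and 127 CPM in the comparison cells. Il7r, the receptor for interleukin-7 (-1.06), and Foxo1, the factor upstream of Klf2 (-1.21), were called lower. The GTPases of the GIMAP family, which support lymphocyte survival, gave log2 ratios from -1.03 (Gimap7) to -0.07 (Gimap5), and of the 5 called only Gimap1 (-0.98) kept its call within depth strata. Ccr7, the medullary homing receptor, was not called, at 553, 527, 576 and 519 CPM in the members and 692, 672, 851 and 575 CPM in the comparison cells.

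Most quiescence genes were called lower, 12 of 18 tested with 1 higher (Tob2, log2 0.71) and a median log2 ratio of -0.88 (12 and -0.65 within depth strata, and 12 when any 1 library was left out). Tsc22d3, the glucocorticoid-induced leucine zipper gene, had 79.6, 82.1, 65.3 and 40.01 CPM in the members and 480.5, 408, 352 and 272 CPM in the comparison cells. Txnip, which limits glucose uptake, had 28.4, 33.4, 20.4 and 15.4 CPM in the members and 179, 135, 225 and 114 CPM in the comparison cells. Pik3ip1, an inhibitor of PI3 kinase, had 32.7, 33.4, 40.8 and 36.9 CPM in the members and 189, 134, 205 and 139 CPM in the comparison cells. All 3 were separated between the sets by more than 3-fold in every library. Tcf7 (-0.83) and Lef1 (-0.86), factors of naive T cells, and Cdkn1b, the cell cycle inhibitor p27 (-1.20), were called lower, while Bach2 (0.09) was not called.

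Treg identity genes were divided. Of 16 tested 3 were called higher and 5 lower (median log2 -0.18), and within depth strata 3 and 4. Foxp3 was sparse, with 19 UMIs in the members and 336 in the comparison cells, and stood at 11.4, 4.05, 0 and 10.8 CPM in the members of libraries 1 to 4 and 16.9, 14.7, 13.7 and 15.4 CPM in the comparison cells (log2 -1.07, interval -1.74 to -0.40). It was lower in the members of each library, from counts of 8, 4, 0 and 7 UMIs, where the 0 in library 3 allows up to 12.2 CPM. Il2ra, the high affinity subunit of the IL-2 receptor, went the other way, with 334, 306, 131 and 265 CPM in the members and 168, 162, 23.01 and 155 CPM in the comparison cells (1.93-fold). Library 3 had the lowest Il2ra level in both sets, and its members lay below the comparison cells of the other libraries. Il2rb, the subunit shared by the IL-2 and IL-15 receptors, had 151, 138, 89.8 and 122 CPM in the members and 222, 260.5, 138 and 200.5 CPM in the comparison cells (log2 -0.75). Gpr83, a receptor enriched in Treg cells, had 90.99, 74.97, 32.7 and 81.6 CPM in the members and 229, 234, 85.2 and 192 CPM in the comparison cells. Lrrc32, which encodes GARP, was called higher (0.69), and Ikzf2, which encodes Helios (0.16), Nrp1 (0.04) and Izumo1r (0.00) were not called.

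Of 19 genes of the IL-2 and STAT5 route, 2 were called higher and 6 lower (median log2 -0.35). The median was 0.10, on the other side of 0, when cells with a UMI of Nkg7 or Xcl1 were left out. The higher pair was Il2ra and Stat5a (0.60). The lower genes included Osm (-1.75), Socs3 (-0.91), Lta (-0.69) and Ccnd3 (-0.85) beside Bcl2 and Il2rb, and Ccnd3 lost its call within depth strata, where 5 were lower. The best known STAT5 targets, Cish (0.02), Socs2 (-0.35) and Pim1 (0.43), were not called. Of 12 effector Treg genes 4 were called higher and 0 lower (median log2 0.34), and within depth strata 5, with Gata3. Batf, an AP-1 partner of IRF4, had 203, 199.6, 118 and 157 CPM in the members and 42.9, 46.7, 26.1 and 43.00 CPM in the comparison cells (4.25-fold). Il1r2, the decoy receptor for interleukin-1, had 46.9, 22.3, 12.2 and 36.9 CPM in the members and 6.51, 2.24, 4.20 and 1.97 CPM in the comparison cells, from 31 of the members, 1 of which gave 16 of the 82 UMIs. Ccr8, a chemokine receptor of activated Treg cells, was 5.39-fold higher and Rora, a nuclear receptor, 2.68-fold.

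Among genes outside the rule with 100 or more UMIs, the highest ratio belonged to Xcl1, a chemokine that draws XCR1-bearing dendritic cells, at chr1:164931644-164935527. It stood at 42.7, 147, 85.7 and 112 CPM in the members of libraries 1 to 4, against 5.09, 6.43, 0.664 and 6.45 CPM in the comparison cells (18.9-fold). Its 269 UMIs came from 41 members, and a single cell gave 80 of them (log2 4.24 with that cell and 3.74 without it). Gpr183, the oxysterol receptor that positions lymphocytes, had 141, 92.2, 163 and 143 CPM in the members and 10.8, 14.3, 22.8 and 16.5 CPM in the comparison cells (8.48-fold), and was spread over 153 members. Mir155hg, the host transcript of miR-155, was 10.1-fold higher, Plscr1, a phospholipid scramblase, 7.29-fold and Grasp, a scaffold protein gene, 6.81-fold. Of 10 cytokine genes with enough UMIs, 5 were called higher and 2 lower (median log2 0.23, and -0.14 after thinning), and within depth strata Ebi3 lost its higher call. Ccl4, too sparse to be tested, had 21 UMIs in 8 members and 4 in the comparison cells. Tnfsf8, which encodes the CD30 ligand, had 155, 111, 298 and 157 CPM in the members and 61.6, 51.03, 99.8 and 60.2 CPM in the comparison cells, and Ccl5 132, 85.1, 16.3 and 98.5 CPM in the members and 41.5, 32.99, 11.9 and 41.03 CPM in the comparison cells. Tgfb1 was called higher (0.66) and Il2 was not called, at 28.4, 18.2, 53.1 and 20.01 CPM in the members and 38.9, 30.1, 43.4 and 40.5 CPM in the comparison cells. Of 8 chemokine and positioning receptors 5 were called higher and 1 lower (median log2 1.16). This median was 0.10 without cells with a UMI of Nkg7 or Xcl1, and 0.36 after thinning. Ptger4, a prostaglandin receptor (1.27), and Ccr6 (1.26) were among the higher, and Ccr9, the receptor for the thymic chemokine CCL25, was the lower one, at 18.5, 10.1, 16.3 and 20.01 CPM in the members and 46.6, 43.5, 73.9 and 55.4 CPM in the comparison cells.

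At the low end stood genes that were almost absent from the members. Itgb3, an integrin chain of platelets and some lymphocytes, had 1 UMI in the members and 202 in the comparison cells (log2 -4.47, interval -7.25 to -1.68). P2ry10b, a receptor gene related to P2ry10, had 1 UMI in the members and 184 in the comparison cells (interval -7.00 to -1.48), and the transcribed pseudogene Gpr137b-ps 1 in the members and 153 in the comparison cells (interval -6.88 to -1.30). Aqp11, an aquaporin gene, had 0 UMIs in the members and 166 in the comparison cells, which is at least 6.45-fold lower against a floor of 3 UMIs over the members. Kat2b, a histone acetyltransferase gene, had 3 UMIs in the members and 258 in the comparison cells (interval -4.95 to -1.68). Arl4c, a small GTPase gene, was better covered, with 18.5, 13.2, 4.08 and 7.69 CPM in the members of libraries 1 to 4, against 63.1, 70.3, 79.7 and 79.4 CPM in the comparison cells.

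Interferon response genes leaned low, with 7 of 23 called lower and 0 higher (median log2 -0.50), but within depth strata the median was -0.19, with 4 lower and 1 higher, and without library 3 there were 11 called lower. Ifit3 had 19.9, 22.3, 48.99 and 43.1 CPM in the members and 57.4, 51.2, 69.3 and 65.2 CPM in the comparison cells, and Irf9, the DNA-binding part of the interferon-activated complex, 69.7, 72.9, 97.97 and 69.3 CPM in the members and 136, 129, 162 and 136 CPM in the comparison cells. Isg15 had a log2 ratio of 0.42. Of 12 heat shock and dissociation genes, 4 were called higher and 3 lower (median log2 0.37), and within depth strata Hsp90ab1 lost its call. The higher genes were chaperones, Hspa5 (1.08), Hsph1 (1.06), Hsp90aa1 (0.99) and Hsp90ab1 (0.59), and the lower ones the fast-induced Klf6 (-1.46), Btg2 (-0.98) and Socs3. Fos, Jun and Zfp36 (-0.17), which tissue dissociation is known to induce, were not called. Of 13 genes of immature thymocytes 5 were called lower and 1 higher (median log2 -0.50), and within depth strata 4 and 2. The higher one without depth strata was Cd24a, which is lost as thymocytes mature, with 68.2, 84.1, 89.8 and 96.95 CPM in the members and 26.04, 29.9, 23.7 and 27.1 CPM in the comparison cells. Dntt, the terminal transferase gene, had 5 UMIs in the members and 267 in the comparison cells, and Cd8a 11 in the members and 334 in the comparison cells.

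Markers of Treg cells and of other cells that the sort could hold were checked in both sets. Summed over 5 Treg markers (Foxp3, Il2ra, Ctla4, Ikzf2 and Tnfrsf18), the libraries gave 2409 to 3080 CPM in the members and 1646 to 2126 CPM in the comparison cells. Tnfrsf18 gave 3931 of the 7618 UMIs of this sum in the members and 16742 of 43703 in the comparison cells. The markers did not go 1 way: Tnfrsf18 and Il2ra were called higher, Foxp3 was called lower (log2 -1.07), and Ctla4 (-0.49) and Ikzf2 were not called. Double-positive thymocyte markers gave 19.2 to 36.7 CPM in the members and 57.5 to 97.8 CPM in the comparison cells, with Rag1 and Ptcra at 0 in the members and at 76 and 42 UMIs in the comparison cells. Each 0 over all members here and below allows up to 1.16 CPM. Of 5 markers of innate-like lymphocytes (NK, NKT and gamma delta T), only Nkg7 had UMIs in the members, and Klrd1, Klrb1c, Klrk1 and Zbtb16 were at 0. Those 4 genes had only 8, 2, 7 and 1 UMIs in the comparison cells, so absence from the members was not detectable at this depth. Nkg7, a cytotoxic granule gene, had 463, 416, 44.9 and 243 CPM in the members and 135, 137, 25.4 and 92.1 CPM in the comparison cells, from 140 members. When cells with a UMI of Nkg7 or Xcl1 were left out, 269 of the 426 members and 5518 of the 6217 comparison cells stayed. Cells with such a UMI were thus more frequent among the members. A deeper cell shows such a UMI more easily, and the part of depth in this was not tested. Among the cells that stayed, the list medians were 0.96 for NF-kB, 1.29 for MYC targets, 1.04 for immediate early genes and -0.77 for egress genes. B cell markers gave 8.16 to 18.5 CPM in the members and 7.52 to 22.2 CPM in the comparison cells. Myeloid and dendritic markers gave 131 to 155 CPM in the members and 114 to 144 CPM in the comparison cells, with Lyz2, Itgax, Fcer1g and H2-Ab1 at 0 in the members and at 1, 0, 10 and 21 UMIs in the comparison cells. Epithelial markers gave 1.54 to 21.3 CPM in the members and 15.3 to 19.0 CPM in the comparison cells, and erythroid markers 0 to 44.9 CPM in the members and 0 to 47.6 CPM in the comparison cells.

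Levels summed over cells were also set out by the number of rule UMIs. The bins come from the rule itself, and whether single cells were graded within or between them was not tested. In cells with 0 to 1, 2 to 3, 4 to 5, 6 to 8 and 9 or more rule UMIs (6217, 588, 203, 135 and 88 cells, with median depths of 3011, 4276, 4911, 5099 and 5662 UMIs), Nr4a1 stood at 70.5, 203, 287, 434 and 670.3 CPM. Bhlhe40 stood at 18.99, 86.6, 137, 187 and 255 CPM, Bcl2l1 at 27.8, 123, 211, 272 and 357 CPM and Tnfrsf4 at 927, 1804, 2375, 2646 and 3507 CPM. These genes climbed through every bin. Xcl1 stood at 4.96, 17.5, 59.2, 80.3 and 229 CPM, but the last bin held the cell with 80 of its UMIs and stood at 93.03 CPM without it. The MYC list behaved otherwise, with summed levels of 5151, 8027, 10380.00, 10100.3 and 10619 CPM, close to level from 4 rule UMIs on. S1pr1 was already at its low level by the third bin, with 224, 95.7, 40.6, 38.9 and 32.7 CPM, whereas Klf2 (1448, 864, 572, 424 and 414 CPM) and Bcl2 (706, 425, 304, 265 and 205 CPM) were lower again in the bins beyond it. Summed over the egress list the bins gave 6329, 4191, 3510.4, 3477 and 3533 CPM. The S phase list was highest in the middle, with 919.8, 1503, 1677, 1405 and 1046 CPM. Cells with 2 or 3 rule UMIs lay between the sets in each of these measures except the S phase list, where they lay above the last 2 bins.

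**Figure D3:**
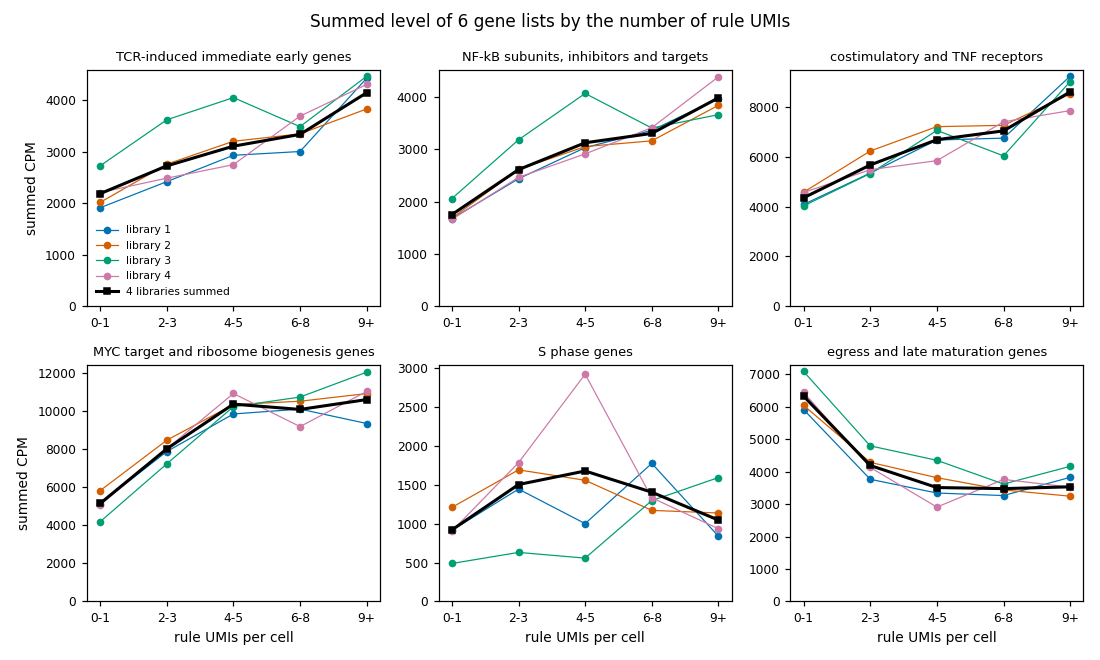
Summed CPM (vertical axis, from 0) of 6 gene lists in cells binned by the number of rule UMIs (horizontal axis), for each library and for the 4 summed. The NF-kB list climbs through all bins in the sum, from 1753 to 3984 CPM, the MYC list is at 10100 or more from the third bin on, and the egress list drops over the first 3 bins, from 6329 to 3510 CPM.

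The members differed among themselves in which rule genes led. In 53 of them (12, 19, 9 and 13 in libraries 1 to 4) the UMIs of Nr4a2, Nr4a3 and Egr2 outnumbered those of Irf4, Cd83 and Nfkbid, in 332 the reverse held, and 41 were tied. Median depth was 3955 UMIs in the NR4A and EGR2-led members and 5369 in the CD83-led members. No library had 20 cells on each side, so no gene was called, and the values are a description in which the part of depth was not tested. MYC list levels summed to 6292, 7064, 6969 and 8508 CPM in the NR4A and EGR2-led members of libraries 1 to 4, against 10102, 11267, 11468 and 10744 CPM in the CD83-led members, lower in all 4 libraries. Of 24 genes of that list with enough UMIs, 23 had a ratio below 1, as did all 14 of the amino acid and nucleotide list, beside 1688 of all 3023 genes. Bcl2l1 had 37.2, 55.4, 105 and 182 CPM in the NR4A and EGR2-led members and 344, 279.6, 201 and 273 CPM in the CD83-led members (log2 -1.69, interval -2.34 to -1.05). Batf had 37.2, 33.3, 34.8 and 90.9 CPM in the NR4A and EGR2-led members and 223, 215, 136 and 185 CPM in the CD83-led members. Both were lower in the NR4A and EGR2-led members of every library. Those members held only 20 UMIs of Bcl2l1 and 11 of Batf in all, so their levels in single libraries rest on few UMIs. Other genes went the opposite way. Egr1 had 261, 344, 105 and 199.98 CPM in the NR4A and EGR2-led members and 31.8, 37.4, 87.01 and 33.2 CPM in the CD83-led members, Nr4a1 1136, 776, 1149.9 and 1273 CPM in the NR4A and EGR2-led members and 323, 275, 473 and 419.6 CPM in the CD83-led members. Cd28 had 354, 222, 383 and 273 CPM in the NR4A and EGR2-led members and 97.1, 136, 190.3 and 105 CPM in the CD83-led members. All 3 were higher in the NR4A and EGR2-led members of every library, from 59 UMIs of Egr1, 234 of Nr4a1 and 65 of Cd28 in those members. Cd69 was higher there in libraries 1, 2 and 4 and not in library 3. Myc itself was close, at 215 CPM in the NR4A and EGR2-led members and 215 CPM in the CD83-led members (log2 interval -0.46 to 0.39). Interferon response genes summed to 1973, 1874, 5993 and 2599.7 CPM in the NR4A and EGR2-led members and 1701, 1706, 2431 and 1829 CPM in the CD83-led members, with the widest gap in library 3, where only 9 cells made up the NR4A and EGR2-led set.

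**Figure D4:**
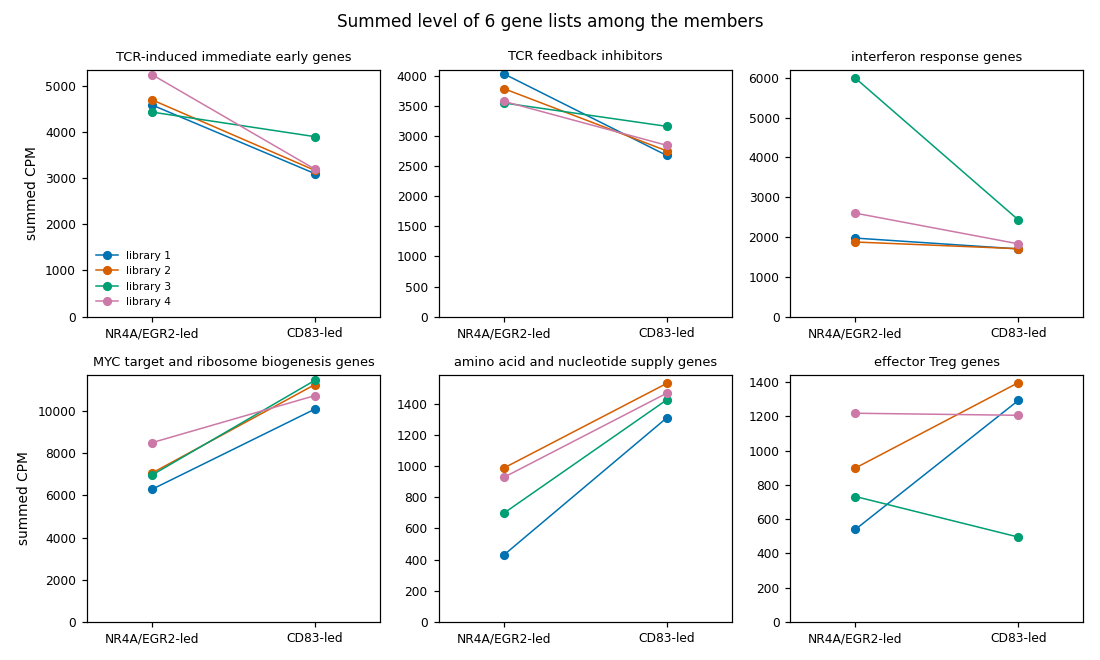
Summed CPM (vertical axis, from 0) of 6 gene lists in NR4A and EGR2-led members (left) and CD83-led members (right), 1 line per library. The MYC and the amino acid and nucleotide lists climb from left to right in all 4 libraries, the immediate early, feedback and interferon lists drop in all 4, and the effector Treg list does not go 1 way.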

How the data were processed

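The count table holds UMI counts that the authors deposited, raw whole numbers for 27998 genes in 8273 cells. The normalized table holds log2 values the authors deposited for 9571 genes in 7231 cells, and each equals log2 of 1 plus the count over a factor of the cell (0.168 to 5.68). Per the submitters' processing notes, the build was mm10 and the tools Cell Ranger 2.0.2, CASAVA 2.20 and R 3.4.1. The cell filter, the factors' method and the G1 call were not given in the sources used here. Symbols came from the GENCODE annotation of GRCm38 for 27645 identifiers, and 353 had none. Trac and Trdc were not analysed here.

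The members, gene lists and tests were chosen with earlier results of these data known. CPM are UMIs summed over cells (795 to 32737 UMIs each) and scaled to 1000000. The ratio of CPM was the Mantel-Haenszel ratio over 4 libraries, with 0.5 UMIs added in all. A call needed 100 UMIs, 1.5-fold and the same direction in every library with 20 cells on each side. The matrix pools samples with no map to them, so no p-value was computed. Doublets were not removed. Shares have exact Clopper-Pearson intervals. A gene at 0 over the members is given with a floor of 3 UMIs. UMIs mark molecules, so intervals cover counting error only. Named were up to 12 genes each way by ratio, up to 4 called genes per list by size of ratio, and a fixed set of signalling, Treg and egress genes. List members beyond these were named after their values were seen.

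Counts for members against comparison cells were simulated with counting error only (8688 genes). In them, 38 of 40 genes raised 2-fold and 34 of 40 lowered 2-fold were called. Of unchanged genes, 0.353% were called higher and 1.17% lower. The simulation held no variation between cells and no choice of deeper cells by the rule, so these rates cover neither. Alternatives covered depth (thinning, depth strata, members by share of rule UMIs), thresholds, count filters and scaling (edgeR 4.0.16 and DESeq2 1.42.0 factors only). They also covered cell filters, the normalized table and leaving out each library. Ratios after thinning kept the members chosen on full counts. The tools were scipy 1.17.1, pandas 2.3.3, numpy 2.4.6, matplotlib 3.10.9 and Python 3.11.15.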

Additional observations from a re-analysis of the deposited data

Results flagged for a closer look

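The normalized table left out 71 cells of the count table that met the rule of 4 or more UMIs, and no comparison above used them. They were 6.81% of the 1042 cells outside that table, where the members were 5.89% of the cells inside it. Their median depth was 11688 UMIs, against 5121 UMIs in the members. Of these 71 cells, 61 (85.9%) had 2 or more UMIs of the mitosis genes, and of the members 48 (11.3%) did. With all cells of the count table used, the shares of libraries 1 to 4 were 7.77%, 7.63%, 2.90% and 5.79%, and 872 genes were called higher and 1237 lower.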

How the results depend on the processing

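Of 248 recomputed counts and shares, 214 stayed within 1.5 times the reported value or within its interval and 34 did not. Within strata of library and depth quartile, 8 egress, 0 S phase and 4 interferon genes were called. Members defined by their share of rule UMIs (300 of 426 in common, median 3541 UMIs) gave 601 genes higher and 807 lower, with 8 egress, 8 naive and quiescence, 0 S phase and 1 interferon gene. With 6 or more rule UMIs, 1 S phase gene was called. Without a filter on UMIs 1942 genes were lower, and with at least 500 UMIs 547 were higher, 659 lower and 4 checkpoints called. The difference of log2 values in the normalized table, whose added 1 shrinks low genes, passed 1.5-fold for 25 genes higher and 12 lower, with 2 immediate early, 1 NF-kB, 4 MYC, 3 egress, 2 quiescence, 0 S phase, 0 checkpoint and 0 interferon genes. All cells of the count table gave 2 S phase genes, as did leaving out the deepest 5% of cells, which also gave 2 interferon genes. Without cells with 4 or more S phase UMIs there were 0 S phase, 4 interferon and 8 quiescence genes. After thinning, members were 2.09%, 1.97%, 1.42% and 2.17% of cells in libraries 1 to 4. Leaving out each library in turn gave 856 to 988 genes higher, 1270 to 1370 lower, 24 to 26 MYC, 12 to 14 NF-kB, 6 to 8 immediate early, 13 to 14 egress, 7 to 8 checkpoint, 7 to 11 interferon, 12 quiescence and 2 to 13 S phase genes. Of 2473 recomputed log2 ratios of named genes, 274 moved by more than the spread between libraries (1 SD) and 8 reversed. Of 528 list medians, 109 moved by more than that spread. A reversal was counted only for genes called in the main comparison. Uncalled genes that changed sign were not counted as reversed, such as Bcl2l11 (-0.11, and 0.19 within depth strata). The reversed ratios were Rrm2 (-0.29), Tyms (-0.88), Uhrf1 (-1.27) and Ung (-0.29) with members by share, Birc5 (-0.20) without mitosis cells, and Rrm2 (-0.33), Tyms (-0.23) and Uhrf1 (-6.33) without S phase cells. The mitosis and S phase filters drop cells by UMIs of the lists that hold these genes, so lower levels of them are partly built in. The S phase filter kept 259 of the 426 members and 5392 comparison cells. The UMIs of Uhrf1 left in those members are not given here, and no floor was worked out. Its value of -6.33 lies below that of Itgb3 in the main comparison (-4.47, from 1 UMI in the members). A ratio that low probably takes its size from the UMIs added in all, so it is not read as a measured fold. For the reversed ratios the cause was not tested. The trimmed mean of M-values moved the median of all genes to -0.11. The alternatives added after seeing the data were at least 500 UMIs, no Nkg7 or Xcl1 cells, no S phase cells and no member with most Xcl1 UMIs.

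No paired test was run, as the results come from no test. The ratios set members against comparison cells within each library and so keep that pairing, and the libraries are unassigned.

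Members are deeper cells than comparison cells, and library 3 has 56 members. Doublets were not removed, genotypes could not be compared, and the intervals do not cover variation between mice.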
